A study of Rattus norvegicus with 232 samples.

Results

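The kainate receptor subunits Grik1, Grik2, Grik3, Grik4 and Grik5 were taken by symbol from a gene table of rat brain RNA, where all 5 were present among 20859 genes. The panel, the Hybrid Rat Diversity Panel, combines classic inbred rat strains with 2 families of recombinant inbred strains, each bred from a pair of inbred progenitors until brother and sister are nearly identical. The table held 214 libraries of total RNA depleted of ribosomal RNA, from 197 untreated animals of 74 strains, with the tissue labelled whole brain. The HXB/BXH family, from SHR/OlaIpcv and BN-Lx/Cub, had 30 strains and 88 animals. The FXLE/LEXF family, from F344/Stm and LE/Stm, had 19 strains and 43 animals, and the remaining 25 strains with 66 animals, progenitors included, were inbred. No strain carried a treatment or a transgene. The paper's methods cover brain RNA of part of these strains and of no FXLE/LEXF strain. For that part they describe young adult male rats and a brain cut along the midline with 1 side used. Brains of HXB/BXH and its progenitors were shipped in liquid nitrogen and those of the other inbred strains went into RNAlater, so storage differed between panels. Of the 74 strains, 54 had 3 animals, 15 had 2 and 5 had 1. The 5 with 1 animal entered no test over all strains or within a panel, and of them only LE/Stm entered a comparison of 2 strains. BN-Lx/Cub was represented by 3 animals, SHR/OlaIpcv by 2, F344/Stm by 3 and LE/Stm by 1.

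Kainate receptors are tetrameric glutamate-gated cation channels, found on both sides of the synapse, where they set transmitter release, carry slow excitatory currents and tune the excitability of principal cells and interneurons. GluK1, GluK2 and GluK3, encoded by Grik1, Grik2 and Grik3, can form channels by themselves and bind kainate with lower affinity. GluK4 and GluK5, encoded by Grik4 and Grik5, bind kainate with high affinity and reach the surface as working channels only together with a subunit of the other class. In the hippocampus the family is best known at the mossy fibre synapse between dentate granule cells and CA3 pyramidal cells, where GluK2, GluK4 and GluK5 assemble with the auxiliary protein Neto1.

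In the authors' brain annotation, whose genome build is not given in the sources used here, the genes lay on 5 chromosomes. Grik1 spanned chr11:27134745-27621537 and Grik2 spanned chr20:51998332-52885778, both on the minus strand. Grik3 spanned chr5:137766734-138006914 on the plus strand, and Grik4 and Grik5 spanned chr8:42884644-43331990 and chr1:80605421-80668763 on the minus strand. Grik3, Grik4 and Grik5 rose and fell together across strains, as described below, so their promoters are shown. Each sequence runs from 250 bases before to 50 bases after the annotated start in RefSeq, build GRCr8, and capitals mark matches to GGGCGG, or CCGCCC on the other strand, the core of a GC box. The windows are chr5:143052192-143052491 on the plus strand for Grik3, chr8:52102014-52102313 on the minus strand for Grik4 and chr1:89794860-89795159 on the minus strand for Grik5.
Grik3: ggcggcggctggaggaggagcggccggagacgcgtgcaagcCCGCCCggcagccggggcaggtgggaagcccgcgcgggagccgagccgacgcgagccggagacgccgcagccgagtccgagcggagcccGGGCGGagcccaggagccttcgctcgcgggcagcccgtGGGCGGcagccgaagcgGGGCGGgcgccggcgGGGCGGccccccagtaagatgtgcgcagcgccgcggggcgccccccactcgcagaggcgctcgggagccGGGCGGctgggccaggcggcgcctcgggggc
Grik4: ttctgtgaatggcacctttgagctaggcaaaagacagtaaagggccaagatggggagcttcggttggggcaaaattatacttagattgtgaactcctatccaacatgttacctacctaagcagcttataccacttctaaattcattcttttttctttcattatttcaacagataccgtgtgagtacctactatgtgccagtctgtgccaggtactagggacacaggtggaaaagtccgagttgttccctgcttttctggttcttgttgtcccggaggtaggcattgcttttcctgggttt
Grik5: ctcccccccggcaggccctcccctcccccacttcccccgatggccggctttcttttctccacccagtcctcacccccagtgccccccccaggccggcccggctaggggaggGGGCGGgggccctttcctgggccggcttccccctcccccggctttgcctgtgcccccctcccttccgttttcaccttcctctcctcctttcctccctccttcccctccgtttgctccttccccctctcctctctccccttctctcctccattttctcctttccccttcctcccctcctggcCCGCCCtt
The windows of Grik3 and Grik5 were richer in G and C than the median window, and that of Grik4 was poorer. The Grik3 window was 82.3% G and C with 49 CpG dinucleotides and 6 GC box matches. That of Grik4 was 44% G and C with 4 CpG and 0 matches, and that of Grik5 was 69% with 11 CpG and 2 matches. Among 27455 rat promoter windows of the same length, the median was 52.3% G and C and 7 CpG, and 34.9% held a GC box match. TATAAA and CCAAT, searched on both strands, matched in none of the 3 windows, against 14.3% and 37.7% of all windows. These are matches of letters and were not tested as sites.

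Levels are the authors' values on a log2 scale, so a difference of 1 is a doubling, and since the files give neither counts nor transcript length, the depth is unknown and levels are compared within a gene only. Library medians ran from 8.18 to 8.42. The mean level of 5 neuronal markers stood at 13.98 to 14.56 in every library. The only LE/Stm animal in the table had a mean level of 5 liver genes of 17.94, while the next highest library stood at 13.46. The mean of 5 Y-linked genes was lowest in HXB17/Ipcv animal 2, at 7.09, and next in the 3 LEW/Crl animals, at 7.28, 7.30 and 7.41, against a median of 7.91. The subunits of these LE/Stm and LEW/Crl animals lay inside the range of the rest, between 9.54 and 9.64 for Grik1 and between 10.70 and 11.19 for Grik5, and no call on a subunit changed without those libraries. BN-Lx/Cub animal 1 was the extreme of the 197 animals for 4 subunits, with the highest Grik2, at 11.56, and the lowest Grik3, Grik4 and Grik5, at 11.06, 9.56 and 9.86. The same library had the highest Y-linked level, 8.58. Among the 192 animals of strains with 2 or more, it was also the lowest for the 3 dentate gyrus markers, at 6.70 against a median of 7.24, and for the 3 oligodendrocyte precursor markers, at 9.64 against 10.20. It was the second lowest for the 6 striatal markers, at 10.04 against 10.50, the third lowest for the 5 neuronal markers, at 14.13 against 14.35, and for the 3 endothelial markers, at 10.28 against 10.53, and the fifth lowest for the 5 markers of cortex and hippocampus, at 11.03 against 11.29. It was also the fourth lowest for the 3 meningeal markers, at 9.79 against 10.27, and the fifth lowest for the 5 olfactory bulb markers, at 7.37 against 7.94. Its 4 oligodendrocyte markers, at 15.82 against a median of 15.49, were the third highest. The part of these levels in its subunit values was not tested, so the ranks of BN-Lx/Cub, its difference from SHR/OlaIpcv and the family counts are given with and without it. Without it the calls on the 5 subunits over all strains and among inbred strains were the same.

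All 5 subunits were expressed in all 197 animals. Grik1 ran from 9.23 to 9.73 with a median of 9.47, and Grik2 from 10.82 to 11.56 with a median of 11.08. Grik3 ran from 11.06 to 11.97 with a median of 11.59, and Grik4 from 9.56 to 10.47 with a median of 10.05. Grik5 had the widest range, from 9.86 to 11.54 with a median of 10.76. Strain means spanned 0.30 for Grik1, 0.36 for Grik2, 0.44 for Grik3 and 0.42 for Grik4, which are folds of 1.235, 1.285, 1.356 and 1.341 between the lowest and the highest of 69 strains. For Grik5 the span was 0.88, a 1.84-fold difference. In the ordered strain means of every subunit, none of the 68 gaps between neighbouring strains exceeded 2 standard errors of the difference, a bound that is wide beside the span with 2 or 3 animals a strain, so small steps between strains could not have been seen.

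**Figure D1:**
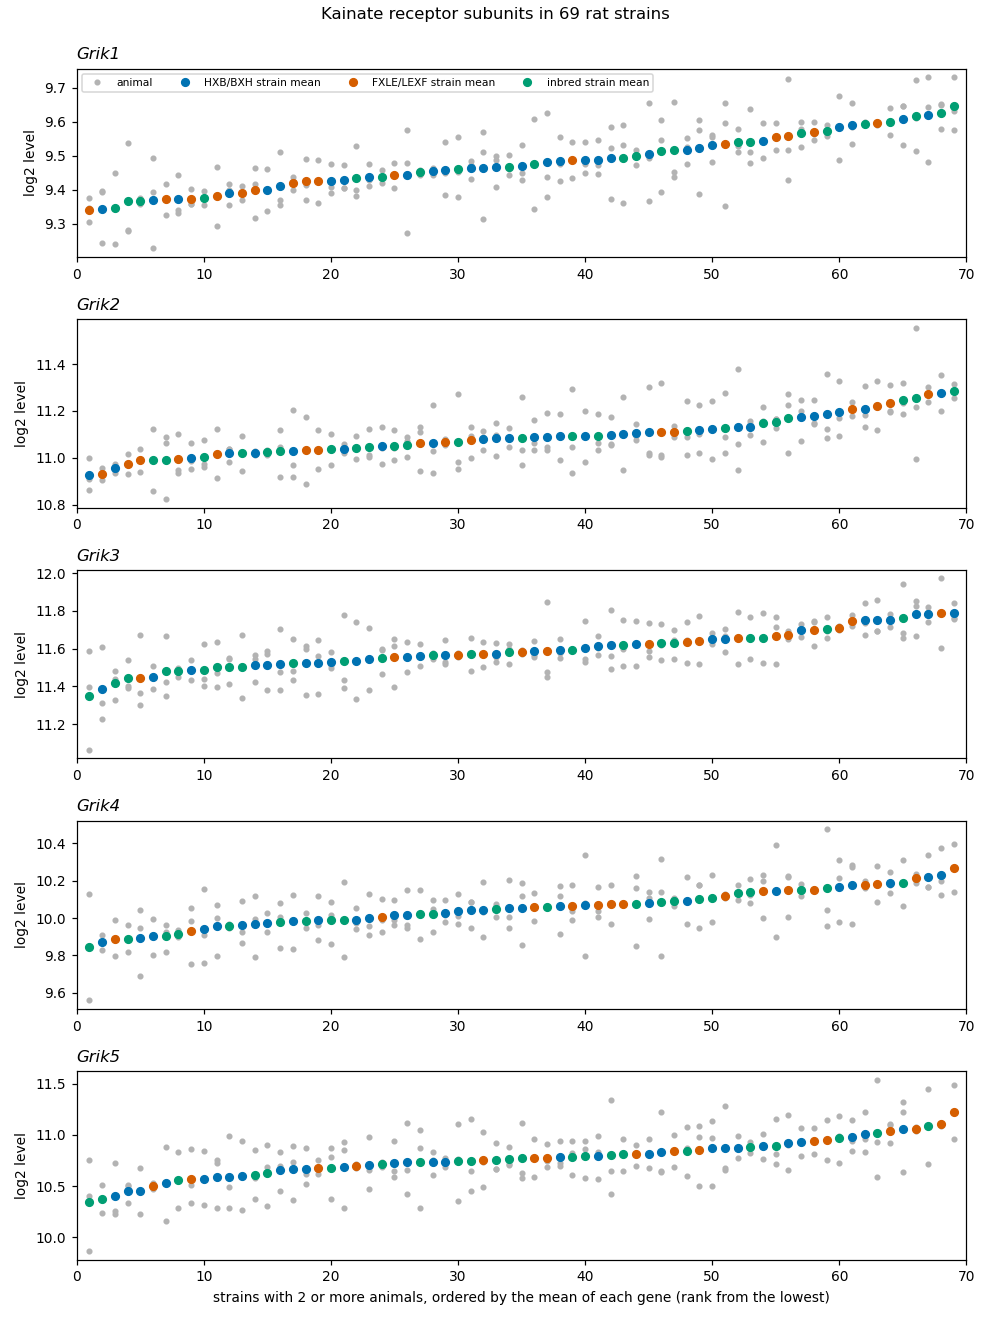
Log2 level of each subunit (y axis) in 69 strains with 2 or more animals, ordered on the x axis by the mean of that gene, with grey points for animals and coloured points for strain means of the HXB/BXH, FXLE/LEXF and inbred strains. The strain means rise gradually in every panel and the animals of a strain overlap those of many others; BN-Lx/Cub is lowest for Grik3, Grik4 and Grik5, a place it does not hold without its animal 1.

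Control libraries of SHR/OlaIpcv, read as repeats of the same animals by their replicate number, had been sequenced in many batches. Their spread is set beside that between animals. The 12 libraries of SHR/OlaIpcv animal 1 ran from 9.34 to 9.60 for Grik1, with an SD of 0.0862. Their SD was 0.13 for Grik2, 0.129 for Grik3, 0.159 for Grik4 and 0.21 for Grik5, whose levels ran from 10.07 to 10.80. The SD between animals of a strain was 0.0837, 0.109, 0.12, 0.135 and 0.264 in the same order, so 12 libraries of 1 animal varied about as much as animals did. The batch 11 library of that animal stood apart, with the lowest library median of all, 8.18, and a liver marker level of 13.39. It gave the animal's highest Grik2, 11.34, and its lowest Grik4 and Grik5, 9.60 and 10.07. SDs without it were not computed. The 6 libraries of SHR/OlaIpcv animal 4 were tighter, with SDs of 0.0787 for Grik1, 0.111 for Grik2, 0.0909 for Grik3, 0.0687 for Grik4 and 0.101 for Grik5.

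**Figure D2:**
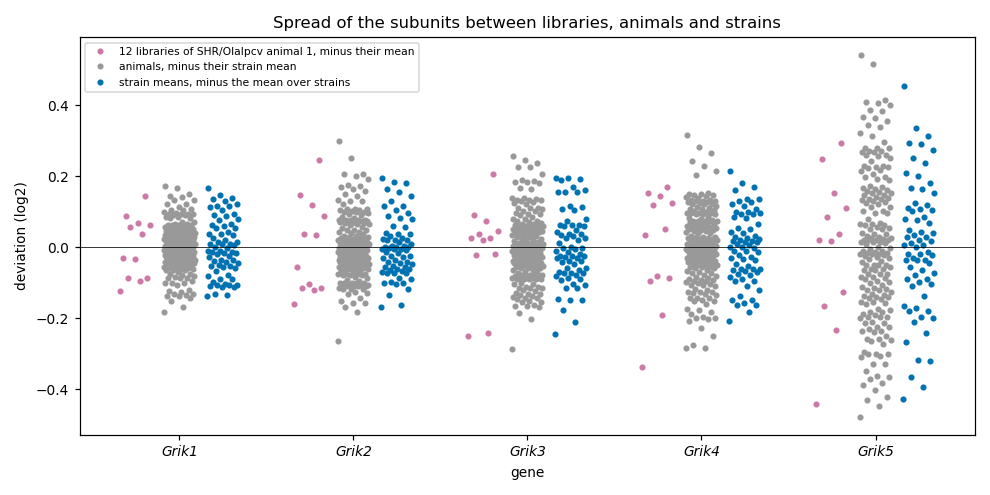
Deviation in log2 units (y axis) of each gene (x axis), for the 12 libraries of SHR/OlaIpcv animal 1 from their mean, for animals from their strain mean and for strain means from the mean over strains. Libraries of a single animal spread over a range like that of the strain means for Grik2, Grik3 and Grik4, and Grik5 is the widest in all 3 kinds of point.

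Whether strain accounts for a subunit's level was asked with R2, the between-strain share of the sum of squares, which the study uses as broad-sense heritability, and with limma's moderated F-test adjusted by Benjamini-Hochberg over all 20859 genes at 5%. With 69 strains and 192 animals, R2 would average 0.356 with no strain effect, the median gene had 0.434, and 36.8% of genes were called. Grik1 and Grik3, 2 of 5 members, were called, a share close to that background. Grik1, the subunit of many interneurons and sensory neurons, had an R2 of 0.585, above 89.9% of genes (limma adjusted p = 9.72e-05), with a between-strain SD of 0.0625. Grik3, a subunit with low sensitivity to glutamate, had an R2 of 0.526, above 82% of genes (limma adjusted p = 0.00261). Grik2, the main subunit of principal neurons, had an R2 of 0.454 (limma adjusted p = 0.0748). Grik4 and Grik5 stood at 0.432 and 0.403 (limma adjusted p = 0.125 and 0.215). The intraclass correlation, the part of the variance between strains, was 0.358 for Grik1, 0.265 for Grik3 and 0.073 for Grik5, the subunit with the largest span of strain means. Both calls were lost without the animals numbered 1 (limma adjusted p = 0.129 for Grik1 and 0.113 for Grik3). Without those numbered 2 or 3, Grik1 passed (limma adjusted p = 0.0188 and 0.0207), while Grik3 failed without those numbered 2 (limma adjusted p = 0.0792) and passed without those numbered 3 (0.0461). Leaving out any number also lowered the count of all genes called, as given in the closing section, so lost calls are not particular to these subunits.

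The calls differed with the panel. In the HXB/BXH family, where 19.1% of genes were called, 1 member passed, Grik3, with an R2 of 0.594 against 0.409 for the median gene (limma adjusted p = 0.004). That call was lost without the animals numbered 2 or 3 (limma adjusted p = 0.0968 and 0.445). Grik1 had an R2 of 0.496 there, and the R2 of Grik2, Grik4 and Grik5 lay between 0.388 and 0.418 (limma adjusted p = 0.122 for Grik1 and at least 0.309 for the others). Among 16 FXLE/LEXF strains with 40 animals, where 5.00% of genes were called, none of the 5 passed. Grik1, Grik2, Grik4 and Grik5 nevertheless had R2 of 0.592 to 0.617 against a median of 0.473, and 3 members had an unadjusted limma p under 0.05, as did 22.8% of all genes. Grik3 was the exception, at 0.363 (limma adjusted p = 0.685), under the 0.385 that no strain effect would give. Among 23 inbred strains, where 18.6% of genes were called, only Grik1 passed, with an R2 of 0.634 (limma adjusted p = 0.0172), and it failed without any 1 of the 3 animal numbers (limma adjusted p from 0.122 to 0.404) and when library medians were subtracted (limma adjusted p = 0.0696). In HXB/BXH and among inbred strains, the count of all genes called fell as well with any animal number left out. That a subunit passed in one panel and not in another was not itself tested as a difference.

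**Figure D3:**
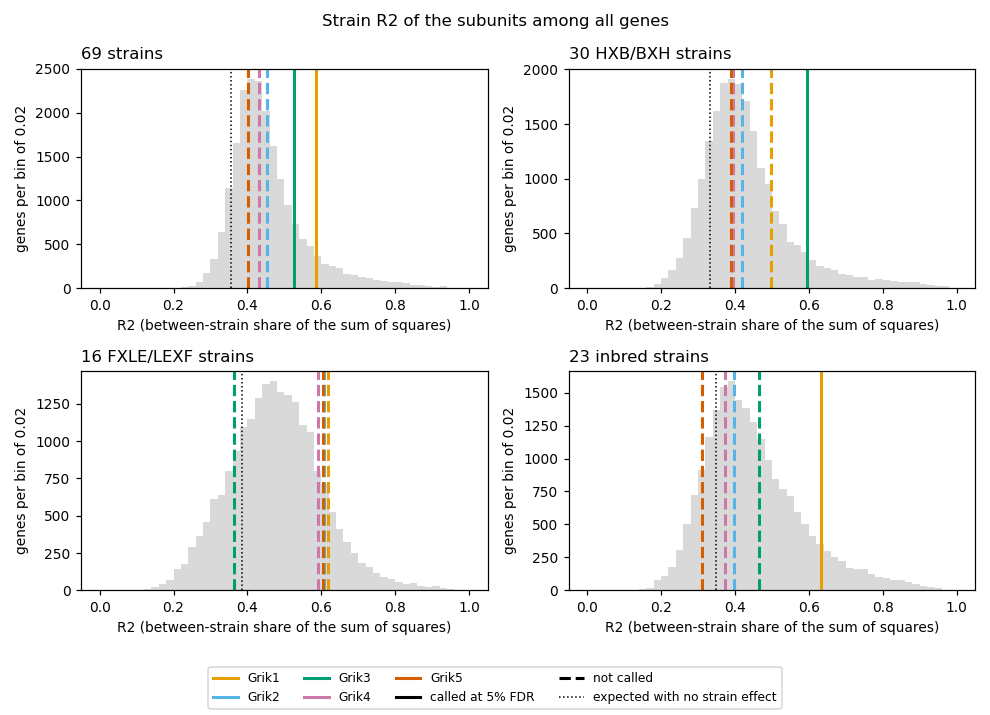
Number of genes per bin of strain R2 (grey, y axis) over R2 (x axis) in 4 panels of strains, with a coloured line for each subunit, solid where called at 5%, and a dotted line at the R2 expected with no strain effect. Grik1 stands highest of the 5 over 69 strains at 0.585, Grik3 in HXB/BXH at 0.594, and Grik1 among inbred strains at 0.634.

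Libraries came from 17 sequencing batches, and calls on the subunits changed with batch in the fit. With batch in the limma fit and 1 library per animal, 58.6% of all genes and all 5 subunits were called over the 69 strains, with adjusted p of 2.77e-05 for Grik1, 0.0109 for Grik2, 0.000988 for Grik3, 0.000901 for Grik4 and 0.0129 for Grik5. In HXB/BXH the fit with batch called 32.1% of genes and 3 subunits, Grik3, Grik4 and Grik5 (limma adjusted p = 0.00402, 0.0407 and 0.0203). In FXLE/LEXF, with 5.33% of genes called, still none passed, and among inbred strains, with 16.1% called, Grik1 alone passed (limma adjusted p = 0.0193). Strains were not spread evenly over batches, so this fit compares strains only where batches link them. Strain values adjusted for batch came from another fit, over all libraries, where the control libraries of SHR/OlaIpcv count singly. They correlated with the plain strain means at r = 0.92 for Grik1, 0.73 for Grik2, 0.88 for Grik3, 0.76 for Grik4 and 0.78 for Grik5, as a description over the 69 strains. The ranks adjusted for batch given below are from that fit over libraries.

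The strains at the 2 ends were read off the means, so they are described without a test. For Grik1 the highest strain was MWF/Hsd, the Munich Wistar Frömter rat, with 9.73, 9.63 and 9.58, followed by M520/N with 9.65, 9.65 and 9.58. The lowest was FXLE14/Stm with 9.35, 9.38 and 9.30, below BXH13/Cub with 9.40, 9.24 and 9.39. Animals of the top and bottom strains did not overlap for this or any other subunit. Picking the ends of 69 means favours that, and the share of all genes with such ends was not counted. After adjustment for batch MWF/Hsd kept rank 1 of 69, the highest, and BXH13/Cub rank 68, while M520/N went from 2 to 3 and FXLE14/Stm from 69 to 64. For Grik2 the highest were BDIX/NemOdaMcwi with 11.32 and 11.26 and HXB10/Ipcv with 11.20 and 11.35. The lowest was HXB1/Ipcv, with 10.91, 10.86 and 11.00, next to FXLE15/Stm with 10.90 and 10.96. With batch adjusted, HXB10/Ipcv went from rank 2 to 11, FXLE15/Stm from 68 to 58 and HXB1/Ipcv from 69 to 59, while BDIX/NemOdaMcwi went from 1 to 2. Neighbouring Grik2 means differed by at most 0.0259, and the cause of the moves in rank was not tested.

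BXH13/Cub, near the bottom for Grik1, was at the top for Grik3. Its animals had 11.76, 11.76 and 11.84 for Grik3, just above LEXF5/Stm with 11.60 and 11.97. BN-Lx/Cub was lowest with 11.06, 11.59 and 11.40, then HXB23/Ipcv with 11.61, 11.23 and 11.31. Adjusted for batch, BXH13/Cub fell to rank 13 and LEXF5/Stm took rank 1, while BN-Lx/Cub and HXB23/Ipcv stood at 68 and 67. Without its animal 1, BN-Lx/Cub had a Grik3 mean of 11.49 and rank 60, or 66 with batch adjusted, and HXB23/Ipcv was lowest. HXB1/Ipcv and HXB10/Ipcv also changed ends between subunits: lowest and second highest for Grik2, they were second highest and second lowest for Grik4, at 10.12, 10.37 and 10.20 against 9.91 and 9.83. The highest Grik4 strain was LEXF1C/Stm with 10.14 and 10.40, and the lowest was again BN-Lx/Cub with 9.56, 10.13 and 9.85. For Grik5, LEXF5/Stm had 10.96 and 11.48 and LEXF1C/Stm had 11.09 and 11.12. At the other end stood BN-Lx/Cub with 9.86, 10.75 and 10.40 and SHR/OlaIpcv with 10.51 and 10.24, the progenitors of the HXB/BXH family. The lowest place of BN-Lx/Cub rested on its animal 1, without which its mean was 9.99 for Grik4, at rank 52, and 10.58 for Grik5, at rank 60. Adjusted for batch it stood at rank 69 for both, and without animal 1 at 67 and 68. The other named strains also changed rank with batch adjusted: for Grik4, LEXF1C/Stm from rank 1 to 10, HXB1/Ipcv from 2 to 13 and HXB10/Ipcv from 68 to 61, and for Grik5, LEXF5/Stm from 1 to 4, LEXF1C/Stm from 2 to 10 and SHR/OlaIpcv from 68 to 61.

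The direct comparison of those progenitors asks which subunits could be inherited as 2 different levels in the family. The 3 BN-Lx/Cub animals had 9.66, 9.44 and 9.45 for Grik1, and the 2 SHR/OlaIpcv animals had 9.46 and 9.42. For Grik2 they had 11.56, 10.99 and 11.22 against 11.09 and 10.99, and for Grik3 11.06, 11.59 and 11.40 against 11.65 and 11.48. The animals of the strains overlapped in all 5 subunits, and BN-Lx/Cub varied more, although each SHR/OlaIpcv value is a mean of 12 or 6 libraries and 2 of the 3 BN-Lx/Cub values are single libraries. In limma, 4.51% of genes and none of the subunits were called between the strains. The largest differences, BN-Lx/Cub minus SHR/OlaIpcv, were 0.21 for Grik2 (SE 0.101, limma adjusted p = 0.226) and -0.22 for Grik3 (SE 0.111, limma adjusted p = 0.257), both with an unadjusted limma p under 0.05. Grik1 differed by 0.08, Grik4 by -0.07 and Grik5 by -0.03, the last with a 95% interval from -0.50 to 0.44, which leaves room for differences as large as those between other strains. Single animals decided much of this. Without BN-Lx/Cub animal 1 the differences were 0.01, 0.06, -0.08, 0.07 and 0.21 for Grik1 to Grik5, a change of sign for the last pair, and without animal 2 the Grik2 difference was 0.34 (limma adjusted p = 0.0312). With batch in the fit over all libraries, where control libraries count singly, Grik2 differed by 0.20 and Grik3 by -0.30 (limma adjusted p = 0.0224 and 0.00234). That fit takes repeat libraries for animals, so its p-values are too small, and without BN-Lx/Cub animal 1 it gave 0.09 and -0.20 (limma adjusted p = 0.451 and 0.0953). The other pair, F344/Stm minus LE/Stm, differed by -0.02, -0.10, -0.04, 0.14 and 0.05 for Grik1 to Grik5. The LE/Stm value rests on 1 animal, the one with high liver genes, so its spread could not be measured and these differences are given without a call. The signs for Grik1, Grik3 and Grik5 were not steady: Grik1 turned to 0.04 and Grik5 to -0.13 without F344/Stm animal 1, Grik3 to 0.0024 without F344/Stm animal 2, and Grik1 and Grik3 to 0.05 and 0.03 with library medians subtracted. The oldest table holds LE/Stm animals 1 and 3 and not animal 2, and with those animals Grik1 differed by 0.25 and was called (limma adjusted p = 0.0439). LE/Stm animal 3 was, like animal 2, on the planned list of doubted animals, and the oldest table was not run without it. How many of all genes were called there was not counted.

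Other tables of the same study held the subunits too. In an older table (v6) of 165 animals, values per animal correlated with those above at r = 0.84 for Grik3 and 0.96 or more for the other subunits, and Grik3 was not called in HXB/BXH (limma adjusted p = 0.116). In the oldest table (v5) of 131 animals, r was 0.58 for Grik5 and 0.70 to 0.86 for the others. Grik4 and Grik5 were called there over all strains (limma adjusted p = 0.000549 and 3.61e-05), and so were Grik1 and Grik3. The share of all genes called in these older tables was not counted. In v5 the progenitor differences of Grik2 and Grik3 had the opposite sign, at -0.15 and 0.25 (limma adjusted p = 0.662 and 0.156). The animals were not the same: SHR/OlaIpcv stood in v5 as animals 1 and 2 with 1 library each, in v6 as animals 1, 3 and 4, and in the table used here as animals 1 and 4 with 18 libraries, so table and animals cannot be told apart there.

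In a recombinant family, a gene set by a single local variant tends to give strain means in 2 groups near the progenitors, and other patterns give a continuum or means outside them. No subunit had more than 1 cluster of strain means over all strains or in HXB/BXH, by a mixture of normals with equal variance. In FXLE/LEXF, Grik1 split into 10 strains near 9.40 and 6 near 9.55, and Grik2 into 12 near 11.03 and 4 near 11.23, and among inbred strains Grik2 split into 20 and 3 strains. All 3 splits went back to 1 cluster when the BIC had to improve by over 6. Clusters were not counted for all genes, and the paper reports a single mode for most transcripts of an older release. Having 1 cluster is therefore not a trait particular to the subunits, and the power to see 2 groups was not measured.

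Grik5 stood outside its progenitors in HXB/BXH. The family's 30 means ran from 10.40 to 11.06, with a median of 10.73, and all 30 lay above both BN-Lx/Cub at 10.34 (SD 0.448, n = 3) and SHR/OlaIpcv at 10.37 (SD 0.19, n = 2), a pattern that 0.594% of all genes shared. For Grik4, 27 of 30 means lay above both, and 3.70% of genes had 27 or more. For Grik3 the count was 16 above and 0 below, for Grik1 8 above and 9 below, and for Grik2 1 above and 7 below with 22 in between. The counts rest on 5 progenitor animals. Besides BN-Lx/Cub animal 1, described above, SHR/OlaIpcv animal 4 was low in neuronal markers, at 13.98 to 14.23 in its 6 libraries. The 12 libraries of SHR/OlaIpcv animal 1 had 14.08 to 14.36, and the median of all libraries was 14.34. The part of these marker levels in the family counts was not tested. Without BN-Lx/Cub animal 1, 25 of 30 means were above both for Grik5, 21 for Grik4, 20 for Grik1 and 12 for Grik2. Without SHR/OlaIpcv animal 1 or animal 4 the Grik3 count was 28 or 7. A fit with batch over all libraries, where control libraries count singly, gave counts of 24 for Grik5, 22 for Grik4 and 9 for Grik3. Without BN-Lx/Cub animal 1 as well they were 24, 20 and 9. The shares of all genes with such counts, with animals left out or batch in the fit, were not counted.

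Control libraries of SHR/OlaIpcv animal 1 stood in 6 of the batches that held HXB/BXH animals, so family and progenitor could also be set side by side within a batch. Of 78 HXB/BXH libraries, 59 (75.6%) had more Grik5 than the SHR/OlaIpcv library of their own batch, and the family's median was the higher in 5 of 6 batches. In batch 6, for example, SHR/OlaIpcv had 10.34 and 17 of 20 HXB/BXH libraries were above it, whereas in batch 2 it had 10.76 and 7 of 15 were above. For Grik4 the count was 55 of 78 (70.5%), again with 5 of 6 batch medians higher. The share of all genes with counts this high within batches was not counted, so they are not shown to be particular to these subunits. Grik1, Grik2 and Grik3 had 36, 41 and 33 of 78 above, but single batches did not divide evenly. For Grik1, 13 of 13 were above in batch 3 and 0 of 12 in batch 5. For Grik2 the counts were 12 of 13 in batch 3 and 1 of 20 in batch 6, and for Grik3 11 of 12 in batch 5 and 3 of 15 in batch 2. BN-Lx/Cub shared only batches 3 and 6 with the family, where 13 of 13 and 19 of 20 libraries had more Grik5 than it. The batch 3 value is the mean of animals 1 and 2, and 8 of the 13 libraries were above animal 2 alone. The SHR/OlaIpcv libraries were all of the same animal, so a strain difference and that animal's own level cannot be told apart.

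**Figure D4:**
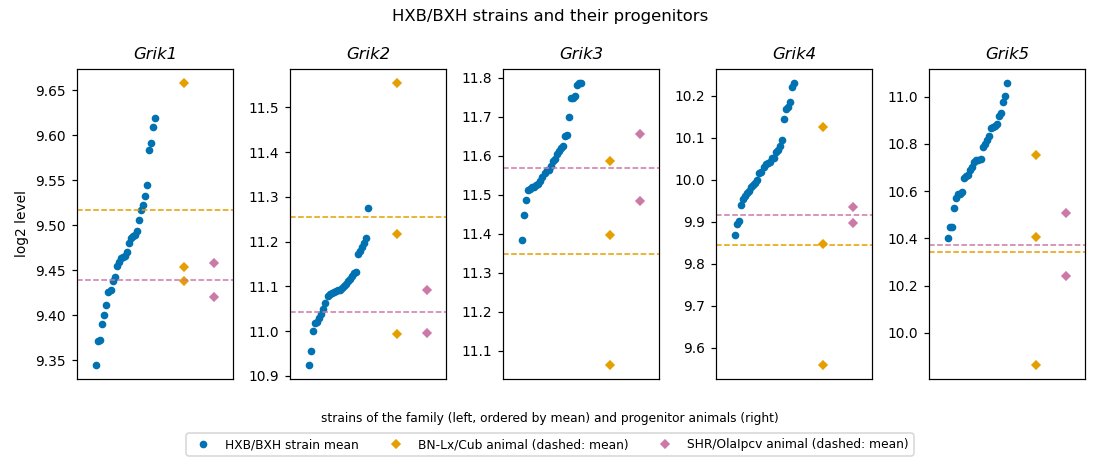
Log2 level of each subunit (y axis): HXB/BXH strain means in blue, ordered from low to high, beside animals of BN-Lx/Cub (orange) and SHR/OlaIpcv (pink), with dashed lines at the progenitor means. All 30 Grik5 means and 27 of 30 Grik4 means lie above both lines, and BN-Lx/Cub animal 1 is the lowest orange point for Grik3, Grik4 and Grik5.

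In FXLE/LEXF, 15 of 16 Grik3 means and 12 of 16 Grik5 means lay above both progenitors, and 11 of 16 Grik1 means and 12 of 16 Grik2 means lay below both. Over all genes, 5.37% had 12 or more means above both and 7.94% had 11 or more below. The share with 15 or more above was not counted. The progenitor range was only as wide as the small differences given above and rested on 1 LE/Stm animal. Both progenitors were sequenced in batch 13 and the family in batches 15, 16, 18, 19 and 20. Family and batch therefore cannot be told apart in these counts, and counts with batch in the fit were not made.

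The subunits did not vary independently. Over 69 strain means, Grik4 and Grik5, the high-affinity pair, correlated at r = 0.71 (rho 0.68), Grik3 and Grik5 at r = 0.68 (rho 0.65) and Grik3 and Grik4 at r = 0.53 (rho 0.52). For all 3 pairs the permutation p, adjusted over the 10 pairs, was 3.33e-05, from the smallest raw p that 100000 permutations can give. Strain means of 2 or 3 animals also hold the spread of animals and libraries, which this p does not separate from strain. Recombinant strains share progenitors, so strains are not fully independent, but within HXB/BXH the r values were 0.64, 0.81 and 0.55, within FXLE/LEXF 0.77, 0.67 and 0.67, and within inbred strains 0.69, 0.53 and 0.37. Among 10428 genes above the median level, 5.96% had r over 0.7 with Grik4 and 7.91% with Grik5. The share of all gene pairs with such r was not counted. Grik1 and Grik2 went together at r = 0.42 (rho 0.44, permutation adjusted p = 0.00058). Between these 2 sets the sign was negative. Grik2 and Grik4 had r = -0.46 (rho -0.43, permutation adjusted p = 0.00015), Grik1 and Grik3 -0.36 (rho -0.37, permutation adjusted p = 0.00478), and Grik2 and Grik5 -0.32 (rho -0.27, permutation adjusted p = 0.00997). Grik1 and Grik5 had -0.25 (permutation adjusted p = 0.0464), while Grik1 and Grik4 (-0.24, permutation adjusted p = 0.0507) and Grik2 and Grik3 (-0.21, permutation adjusted p = 0.0807) failed by r. By rho, Grik1 and Grik4 just passed (-0.24, permutation adjusted p = 0.0498) and Grik2 and Grik3 failed (-0.20, permutation adjusted p = 0.0913). No pair changed sign without the 2 strains farthest out or with batch removed, where r ran from 0.41 to 0.66 and 0.43 to 0.71 for the 4 positive pairs.

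The same pattern appeared among animals of a strain and among libraries of a single animal. Within strains, Grik4 and Grik5 had r = 0.68, Grik3 and Grik5 0.64, and Grik2 and Grik4 -0.59. Over the 12 libraries of SHR/OlaIpcv animal 1, read as repeats of 1 brain, Grik4 and Grik5 had r = 0.83, Grik2 and Grik4 -0.91, and Grik2 and Grik5 -0.88. Grik3 and Grik5 were at 0.27 there. These 12 values are a description, since the libraries were read as repeats of 1 sample, and they include the batch 11 library that stood apart. The part of library preparation and sequencing in the correlations between strains was not tested.

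**Figure D5:**
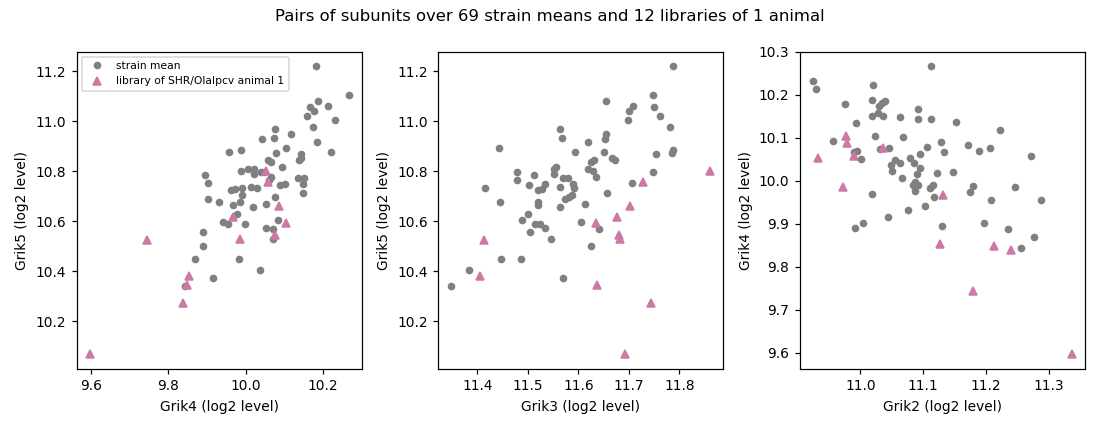
Log2 levels of 3 pairs of subunits plotted against each other, with grey circles for 69 strain means and pink triangles for the 12 libraries of SHR/OlaIpcv animal 1. Grik4 with Grik5 and Grik2 with Grik4 line up along the same slope sign in both kinds of point (r = 0.71 and 0.83, and r = -0.46 and -0.91), and Grik3 with Grik5 less so in the libraries (0.68 and 0.27).

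Genes whose strain means were most like a subunit's were sought among 10428 genes above the median level, as a description over 69 strains. Grik5 had many: its closest were Adgrb2, an adhesion receptor (r = 0.94), Celsr2, a large cadherin (0.93), and Cacna1h, a T-type calcium channel (0.93), and 825 genes had r over 0.7. Grik4 was closest to Atg2a, an autophagy protein (0.88), Abca2, a lipid transporter (0.86), and Prrc2a (0.86), with 622 genes over 0.7. Grik3 was closest to Slc6a17, a vesicular amino acid transporter, and Adcy9, an adenylyl cyclase (both 0.87), and Fam189a1 (0.84), with 282 over 0.7. Grik2 had 5 such genes, led by Fgf14, a modulator of sodium channels (0.76), Kcnd2, an A-type potassium channel (0.74), and Cpsf6, a 3′ end processing factor (0.73). Grik1 had 0, its closest being Grm8, a presynaptic glutamate receptor (0.64), Cdh7 (0.56) and Scg2 (0.55). Thus Grik1, with the largest strain R2, followed a course shared by few genes, and Grik5, with the smallest, moved with the most, 7.91% of the candidates.

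Genes starting within 5 Mb on the same chromosome were compared over the 30 HXB/BXH means, as a description. Many genes elsewhere in the genome went with a subunit as closely: r was over 0.7 in size for 6 of 135 neighbours of Grik3 (4.44%) and 4.72% of genes elsewhere, for 6 of 72 (8.33%) and 7.19% with Grik4, and for 31 of 195 (15.9%) and 6.58% with Grik5. Grik1 and Grik2 had 0 such neighbours. The highest value elsewhere was above the highest among neighbours for every subunit. It was taken over at least 14178 genes against at most 195 neighbours, so a higher maximum elsewhere says little about the neighbours. The shares near and elsewhere were not tested against each other. Closest to Grik3 among 135 neighbours were Hivep3 (r = 0.82) and Zmpste24 (-0.81). Hivep3, a zinc finger protein, was itself called in HXB/BXH (limma adjusted p = 0.0172). For Grik5, Cic (0.85) and Fcgbp (0.85) were among the closest of 195 neighbours, and Fcgbp was called (limma adjusted p = 0.0373). Grik4 went with Abcg4 (0.80), Dscaml1 (0.79) and Phldb1 (0.79) of 72. For Grik1 the strongest of 49 was Hunk (-0.60), and for Grik2 the strongest of 14 was Prep (-0.54). None of the neighbours named here was called in the comparison of the progenitors (limma adjusted p at least 0.328).

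Transcript values were far less steady than gene values. The transcript table held 15 RefSeq transcripts of the 5 genes, 4 of Grik1, 1 of Grik2, 2 of Grik3, 5 of Grik4 and 3 of Grik5, where 13.4% of all 45918 transcripts had a strain effect. Of the 15, 2 did. Grik1 transcript NM_001111114.1 had an R2 of 0.481 (limma adjusted p = 0.0449), and 0.575 in HXB/BXH (limma adjusted p = 0.0108), where 6.84% were called. Its strain means ran from 6.41 in SHRSP/A3NCrl to 8.90 in BN/NHsdMcwi, and over strain means it followed the Grik1 gene value at r = 0.09 only. Without BN-Lx/Cub animal 1 its call over all strains was lost (limma adjusted p = 0.0547). Grik3 transcript NM_001112716.1 had an R2 of 0.51 (limma adjusted p = 0.0122), ran from 7.09 in BN-Lx/Cub to 9.37 in LEXF5/Stm, and followed the gene value at r = 0.64. Without BN-Lx/Cub animal 1 that strain had 7.47, LEXF10A/Stm was lowest with 7.24, and the transcript was still called (limma adjusted p = 0.0375). In the 12 libraries of SHR/OlaIpcv animal 1 these transcripts varied with SDs of 0.78 and 1.06, and the other Grik3 transcript with 2.19. At the other extreme the single Grik2 transcript followed its gene at r = 0.9955 and had an SD of 0.149. None of the 15 was called between BN-Lx/Cub and SHR/OlaIpcv, where 0.791% of transcripts were.

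Proteins that assemble, anchor, turn over or edit kainate receptors were read from a list of 15 genes, all of them in the table. Over 69 strains 3 of 15 (20%) were called, beside 36.8% of all genes, and the median R2 of the 15 was 0.436, beside 0.434 for all genes. The difference between these shares was not tested. Nsf, the fusion ATPase that takes part in receptor trafficking, had the largest R2 of the list, 0.499 (limma adjusted p = 0.0133). Adarb1, the adenosine deaminase that edits the pore of GluK1 and GluK2, had 0.496 (limma adjusted p = 0.0209), and the auxiliary subunit Neto2 had 0.469 (limma adjusted p = 0.0365). In HXB/BXH, where 19.1% of genes were called, 1 of 15 passed, Nsf. In FXLE/LEXF, where 5.00% were, 1 of 15 passed, C1ql2, the synaptic organizer that mossy fibres release (limma adjusted p = 0.0489). Among inbred strains, where 18.6% of genes were called, and between BN-Lx/Cub and SHR/OlaIpcv, where 4.51% were, none passed.

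Levels of markers of brain regions and cell types moved with some subunits. Fewer cells of a type and less RNA per cell cannot be told apart in whole tissue. Grik4 followed 3 markers of the dentate gyrus, whose mean level ran from 6.70 to 7.61 over animals, at r = 0.72 over strain means and 0.73 within strains, and 3 markers of oligodendrocyte precursors (mean level 9.64 to 10.56) at 0.67. Grik3 followed 5 markers of cortex and hippocampus (10.93 to 11.63) at 0.65 and 6 striatal markers (9.90 to 10.85) at 0.55, and Grik5 followed dentate markers at 0.52 and neuronal markers at 0.50. Grik2 was highest where oligodendrocyte precursor markers were low, at -0.50, and within strains followed 7 markers of cerebellar granule cells (9.79 to 11.30) at 0.51. Grik1 had no r beyond 0.25 in size over strain means with any of the lists. The 5 Y-linked genes had r of -0.45, -0.48 and -0.51 with Grik3, Grik4 and Grik5, and 0.45 with Grik2, across animals labelled or described as male. The part of tissue sampling in the strain values was not tested.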

How the data were processed

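Total RNA from brains of the panel was sequenced after ribosomal RNA depletion with a stranded kit. Per the submitters' processing notes, reads were trimmed with cutadapt (version 1.9.1), ribosomal reads were removed with Bowtie2 (2.3.4.3 or 2.4.5), and HISAT2 (2.1.0 or 2.2.1), StringTie (1.3.5 or 2.2.1), RSEM (1.3.1 or 1.3.3) and DESeq2 (no version) followed. The study's methods describe, for an older release, alignment to strain-specific genomes, removal of a factor of unwanted variation and a regularized log transformation. For the release used here (7.1) these steps are not given in the sources used here. The gene values that the authors deposited are on a log2 scale. If they were made by that transformation, values of low genes are drawn toward the gene's mean, which was not tested. The deposited transcript and reconstruction tables hold scores on the same kind of scale, with 21 transcript values above 30. No counts were given, so depth is unknown.

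Of 232 labelled samples of 74 strains, 214 libraries were in the table. Columns were matched to samples by name, and 2 columns of other tables that fit more than 1 sample were not used. Batches are the batch given in the labels, which differs from the batch in the title for 23 libraries. Libraries of the same strain and replicate number were read as repeats of 1 animal and averaged, for 3 animals. Replicates are taken to be separate animals, and p-values measure the spread between them. After 73 spike-in rows were left out, 20859 genes were fitted in limma 3.58.1 (R 4.3.3), with strain as the only term, Benjamini-Hochberg adjustment over all genes and a 5% false discovery rate. Progenitor contrasts used the spread of all strains, so that the lone LE/Stm animal is assumed to vary like the others. Clusters of strain means came from mclust 6.1.1 with 1 to 3 components, and correlation p-values from 100000 permutations, two-sided. The tests were tried on simulated data. Same-numbered animals of different strains had a mean correlation of 0.013, against -0.00626 for different numbers, so the numbers were not taken as pairs.

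Named genes follow a rule: the 5 members, the 2 highest and 2 lowest strains of each, the 3 genes most like each over all strains and the 3 most like each among neighbours within 5 Mb, and partners called at the largest R2 or in a progenitor contrast. Some items that the rule names are not reported here. Neto2, Adarb1 and C1ql2 were named after their values were seen. The members and lists were chosen with earlier results of these data known. Gene symbols were matched to RefSeq (GRCr8) for 18407 genes, and promoters of all 5 members were found there. Alternatives were other scalings, batch or replicate number in the fit, low genes left out, animals or doubted libraries left out, and 3 other tables of the authors.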

Additional observations from a re-analysis of the deposited data

How the results depend on the processing

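Over all strains the count of genes called was 7677, of which 2 subunits. It was 15453 and 5 subunits with batch as a covariate over libraries, and 12228 and 5 with batch and the first library of each animal, a fit chosen after seeing the data. In those fits the limma adjusted p was 0.000691 or 0.0109 for Grik2, 1.31e-05 or 0.000901 for Grik4 and 5.24e-05 or 0.0129 for Grik5. In HXB/BXH both called 6694 genes in place of 3992, with 0.0407 for Grik4 and 0.0203 for Grik5. Among inbred strains the fit over libraries called 10421 genes in place of 3878, with limma adjusted p of 0.0241 for Grik2, 0.0342 for Grik3 and 0.0474 for Grik4. That fit takes the 18 libraries of 2 SHR/OlaIpcv animals for replicates, and with batch and 1 library per animal 3367 genes and, of the subunits, Grik1 alone were called, with 0.638, 0.406 and 0.524 for those 3. Subtracting library medians gave 0.0696 for Grik1 among inbred strains. The cause of these changes was not tested.

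For BN-Lx/Cub minus SHR/OlaIpcv, 940 genes were called, 6840 and 1567 with batch in the 2 forms and 548 with the first library of each animal. The fit over libraries gave 0.1994 for Grik2 (limma adjusted p = 0.0224) and -0.3026 for Grik3 (0.00234). With BN-Lx/Cub animal 1 also left out, chosen after seeing the data, it called 3032 genes and no subunit, and Grik1 turned to -0.0373. With the replicate number as a block, 410 genes were called, 7963 over all strains, and no subunit changed its call. The numbers are not a pairing of animals. Grik5 turned to 0.0039 with library medians subtracted, 0.1596 in the reconstruction table and 0.0195 in the older (v6) table, and Grik4 to 0.0444 in the last. In the oldest table (v5), Grik2, Grik3 and Grik4 turned to -0.1463, 0.2474 and 0.0779. These tables also hold other animals: of SHR/OlaIpcv, v5 shares 1 of its 2 animals with the table used here, v6 shares 2 of 3 and the reconstruction shares 2 of 4. For LE/Stm, v5 has 2 other animals, of which animal 3 was on the list of doubted animals, and shares 0. For F344/Stm minus LE/Stm, Grik1 turned to 0.028 with quantile normalization, 0.0541 with medians subtracted and 0.2454 in v5 (limma adjusted p = 0.0439), Grik3 to 0.0339 with medians subtracted and 0.0548 in v5, and Grik5 to -0.0801 in v5. F-tests in other tables gave limma adjusted p of 0.116 for Grik3 in HXB/BXH (v6), and 0.000549 and 3.61e-05 for Grik4 and Grik5 over all strains (v5). The shares of all genes called in the other tables were not counted.

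Leaving out all animals of 1 number gave 3116 to 6122 genes over all strains with 0 to 2 subunits, 1710 to 1902 in HXB/BXH, 99 to 1781 in FXLE/LEXF and 1268 to 2223 among inbred strains. The limma adjusted p then ran from 0.0188 to 0.129 for Grik1 and 0.0461 to 0.113 for Grik3 over all strains, 0.0314 to 0.445 for Grik3 in HXB/BXH and 0.122 to 0.404 for Grik1 among inbred strains. Without BN-Lx/Cub animal 1 alone, 7408 genes were called over all strains and 3954 among inbred strains, with 6.28e-05 for Grik1 and 0.00373 for Grik3 over all strains and 0.00936 for Grik1 among inbred strains. With animals left out by number or singly, BN-Lx/Cub minus SHR/OlaIpcv gave 202 to 1777 genes and ran from 0.0616 to 0.3428 for Grik2, -0.3389 to 0.0081 for Grik3, -0.2125 to 0.0898 for Grik4 and -0.2392 to 0.3399 for Grik5. F344/Stm minus LE/Stm ran from -0.0671 to 0.0378 for Grik1, -0.0663 to 0.0024 for Grik3 and -0.1338 to 0.2421 for Grik5. It could not be given without replicate 2 or without the doubted libraries, which remove the only LE/Stm animal. The counts of HXB/BXH means above both progenitors, for which all alternatives were chosen after seeing the data, ran from 4 to 20 for Grik1, 0 to 12 for Grik2 and 7 to 28 for Grik3 with progenitor animals left out. Depth is unknown, so what it limits could not be measured.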
